A study of Mus musculus with 46 samples.

Results

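The genes described here were the vessel and angiogenesis genes of MC-38 tumors, 10 of the 48795 genes in an expression table of 46 samples in 8 replicate groups. They were chosen by name. Pecam1, Cdh5, Kdr, Tek, Tie1, Vwf, Eng and Esam are 8 genes of blood vessel endothelium, and Vegfa and Angpt2 are 2 secreted angiogenic factors. All 10 names were found in the table. RNA of bulk tumors was sequenced after depletion of ribosomal RNA, and a level is given in FPKM, which scales the fragments of a gene by its length and by the size of the library.

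MC-38 is a mouse colon carcinoma cell line of C57BL/6 origin, and all samples came from this 1 line. The groups were 3 cultures of the cells (no mouse, no treatment), 3 tumors taken untreated (baseline), 5 tumors each under isotype antibody or PD-1 Ab after 1 dose (day 4 of treatment) and 5 each after 2 doses (day 8 of treatment), and 10 WT and 10 PD-1cKO tumors with a day 28 label. Baseline and antibody tumors grew under the skin of the right flank of WT mice, and the antibody was muDX400, anti-mouse PD-1, at 5 mg/kg. PD-1cKO mice carried floxed Pdcd1 (Pdcd1 fl/fl) and Rosa26-creERT2, a tamoxifen-activated Cre made in all tissues, so deletion was not limited to T cells. Tamoxifen at 40 mg/kg was given to the PD-1cKO mice and to their littermate controls, which are labelled WT. All mice were female and 8 to 10 weeks old when injected, per the methods. The methods put the collection of antibody tumors at days 11 and 15 and of PD-1cKO tumors at day 22 after implant. The label of the latter is day 28, which the results of the paper also give as days after implant. Its supplement gives both day 22 and day 28. The supplement describes the tumor profiles as those of individual animals, whereas nothing says that the 3 cultures were separate, so p-values against them measure a spread that may be technical.

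Endothelial cells line blood vessels and, in a transplanted tumor, come from the host and not from the injected cells. VEGF-A, made by tumor cells and myeloid cells and induced by low oxygen, acts through VEGFR2, the product of Kdr, to drive sprouting of new vessels. Angiopoietin-2, released by activated endothelium, competes at the receptor TIE2, the product of Tek, and loosens vessels, while the related receptor TIE1 modulates TIE2. Pecam1 (CD31) and Cdh5 (VE-cadherin) encode junction proteins, Esam encodes a junctional adhesion molecule, Eng (endoglin) encodes a coreceptor for TGF-beta family ligands, and Vwf encodes a clotting protein stored in endothelial granules. Some of these genes are also expressed outside endothelium, Pecam1 and Eng in myeloid cells and Pecam1 and Vwf in platelets or their precursors.

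In the GENCODE annotation of build GRCm38, which the gene identifiers of the files matched, Pecam1 (ENSMUSG00000020717) lay at chr11:106654217-106750628 and Eng (ENSMUSG00000026814) at chr2:32646595-32682669. Kdr (ENSMUSG00000062960) lay at chr5:75932827-75978458, and Tek (ENSMUSG00000006386) and Tie1 (ENSMUSG00000033191) shared a chromosome, at chr4:94739289-94874976 and chr4:118471191-118490061. Vegfa (ENSMUSG00000023951) lay at chr17:46016993-46032369 and Angpt2 (ENSMUSG00000031465) at chr8:18690263-18741562. Values were summed over the exons of a gene. At most 0.998% of the 50-base stretches of a member occurred in another gene, and the exons of Eng overlapped those of Fpgs on the opposite strand by 61 bases.

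Promoter windows of 300 bases (250 before and 50 after the annotated start) were available from RefSeq (GRCm38.p6) for 5 of the 10 genes. The windows of the 4 vessel genes among them are printed here because these genes rose and fell together across tumors. Capitals mark matches on either strand to 2 motifs of ETS factors, AGGAAG and CCGGAA, to GATAAG of GATA factors, and to ACGTG or GCGTG, the core of the hypoxia response element. The windows are chr2:32646345-32646644 (Eng), chr4:118489800-118490099 (Tie1, minus strand), chr5:75978406-75978705 (Kdr, minus strand) and chr4:94739039-94739338 (Tek).
Eng: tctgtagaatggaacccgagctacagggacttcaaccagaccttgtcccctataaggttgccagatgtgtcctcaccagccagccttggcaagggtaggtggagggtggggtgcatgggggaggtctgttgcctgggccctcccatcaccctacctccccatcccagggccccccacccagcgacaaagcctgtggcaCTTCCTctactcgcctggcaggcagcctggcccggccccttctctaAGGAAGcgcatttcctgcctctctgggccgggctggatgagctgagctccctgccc
Tie1: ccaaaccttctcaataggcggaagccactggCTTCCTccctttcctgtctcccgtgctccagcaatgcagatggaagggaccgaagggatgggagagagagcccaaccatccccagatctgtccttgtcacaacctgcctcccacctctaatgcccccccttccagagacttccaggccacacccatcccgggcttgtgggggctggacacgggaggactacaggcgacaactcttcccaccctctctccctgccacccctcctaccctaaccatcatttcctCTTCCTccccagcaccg
Kdr: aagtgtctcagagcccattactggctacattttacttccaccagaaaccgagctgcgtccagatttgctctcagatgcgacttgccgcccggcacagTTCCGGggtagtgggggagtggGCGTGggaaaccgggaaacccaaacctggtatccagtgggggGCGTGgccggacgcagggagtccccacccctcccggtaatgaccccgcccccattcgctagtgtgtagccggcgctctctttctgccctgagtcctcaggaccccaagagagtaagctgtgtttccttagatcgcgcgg
Tek: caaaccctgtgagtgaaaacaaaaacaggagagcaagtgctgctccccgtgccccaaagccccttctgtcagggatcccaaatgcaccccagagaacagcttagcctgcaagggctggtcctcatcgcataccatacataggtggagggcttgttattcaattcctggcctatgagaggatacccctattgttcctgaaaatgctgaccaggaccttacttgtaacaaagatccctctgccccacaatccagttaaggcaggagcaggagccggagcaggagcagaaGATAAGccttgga
The Eng and Tie1 windows each held 2 matches to AGGAAG, a motif found in 35.4% of all promoter windows of this length. The Kdr window held 1 match to CCGGAA (14.9% of all windows) and 2 to GCGTG (32.4%), and the Tek window held 1 match to GATAAG (7.44%). Of 2 windows of Vegfa, that at chr17:46032328-46032627 spanned the outer start of the gene (minus strand) and held none of the 5 motifs. That at chr17:46025114-46025413 lay wholly inside the gene (chr17:46016993-46032369) and held 1 ACGTG (19.6% of all windows) and 1 GCGTG. The matches of this inner window therefore do not lie before the outer start. No matches overlapped. A match is a run of letters and not a measured binding site.

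Several samples stood apart. The FPKM of a sample summed to 440865 to 569885 in the cultures, baseline tumors and antibody tumors, with the exception of isotype control replicate 1 of the 1-dose groups, where the sum was 818006 and mitochondrial genes held 54.6% (2.89 to 7.65% elsewhere in the antibody study). WT tumors summed to 621233 to 946853 and PD-1cKO tumors to 598599 to 1224460, and annotated short noncoding RNAs held 30.2 to 54.6% and 31.1 to 66.5% of these sums, against at most 0.0817% in the antibody study, so tests of levels were made within the antibody study or within the PD-1cKO study. The read depth is not known from FPKM. Epithelial genes were nearly absent from the carcinoma line, with 0.62 to 0.74 FPKM summed over 6 genes in culture.

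Cultured MC-38 cells carried the factor genes but hardly any vessel gene. Vegfa read 64.9, 68.5 and 64.2 FPKM in the 3 cultures, and Angpt2 1.27, 0.938 and 1.30 FPKM. No vessel gene exceeded 0.371 FPKM in a culture, Tek was listed at 0 in 1 culture and Tie1 in 2. In every tumor group the mean of each vessel gene was higher, and no tumor overlapped the cultures in Pecam1, Cdh5, Kdr, Tek, Tie1, Vwf, Eng or Esam. Some margins were small. Esam read 0.343 FPKM in isotype control replicate 1 of 1 dose and 0.310 FPKM in culture 1, and Tek 0.0852 FPKM in baseline replicate 1 and 0.0397 FPKM in culture 1. The share of all genes in which no tumor overlapped the cultures was not taken.

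**Figure D1:**
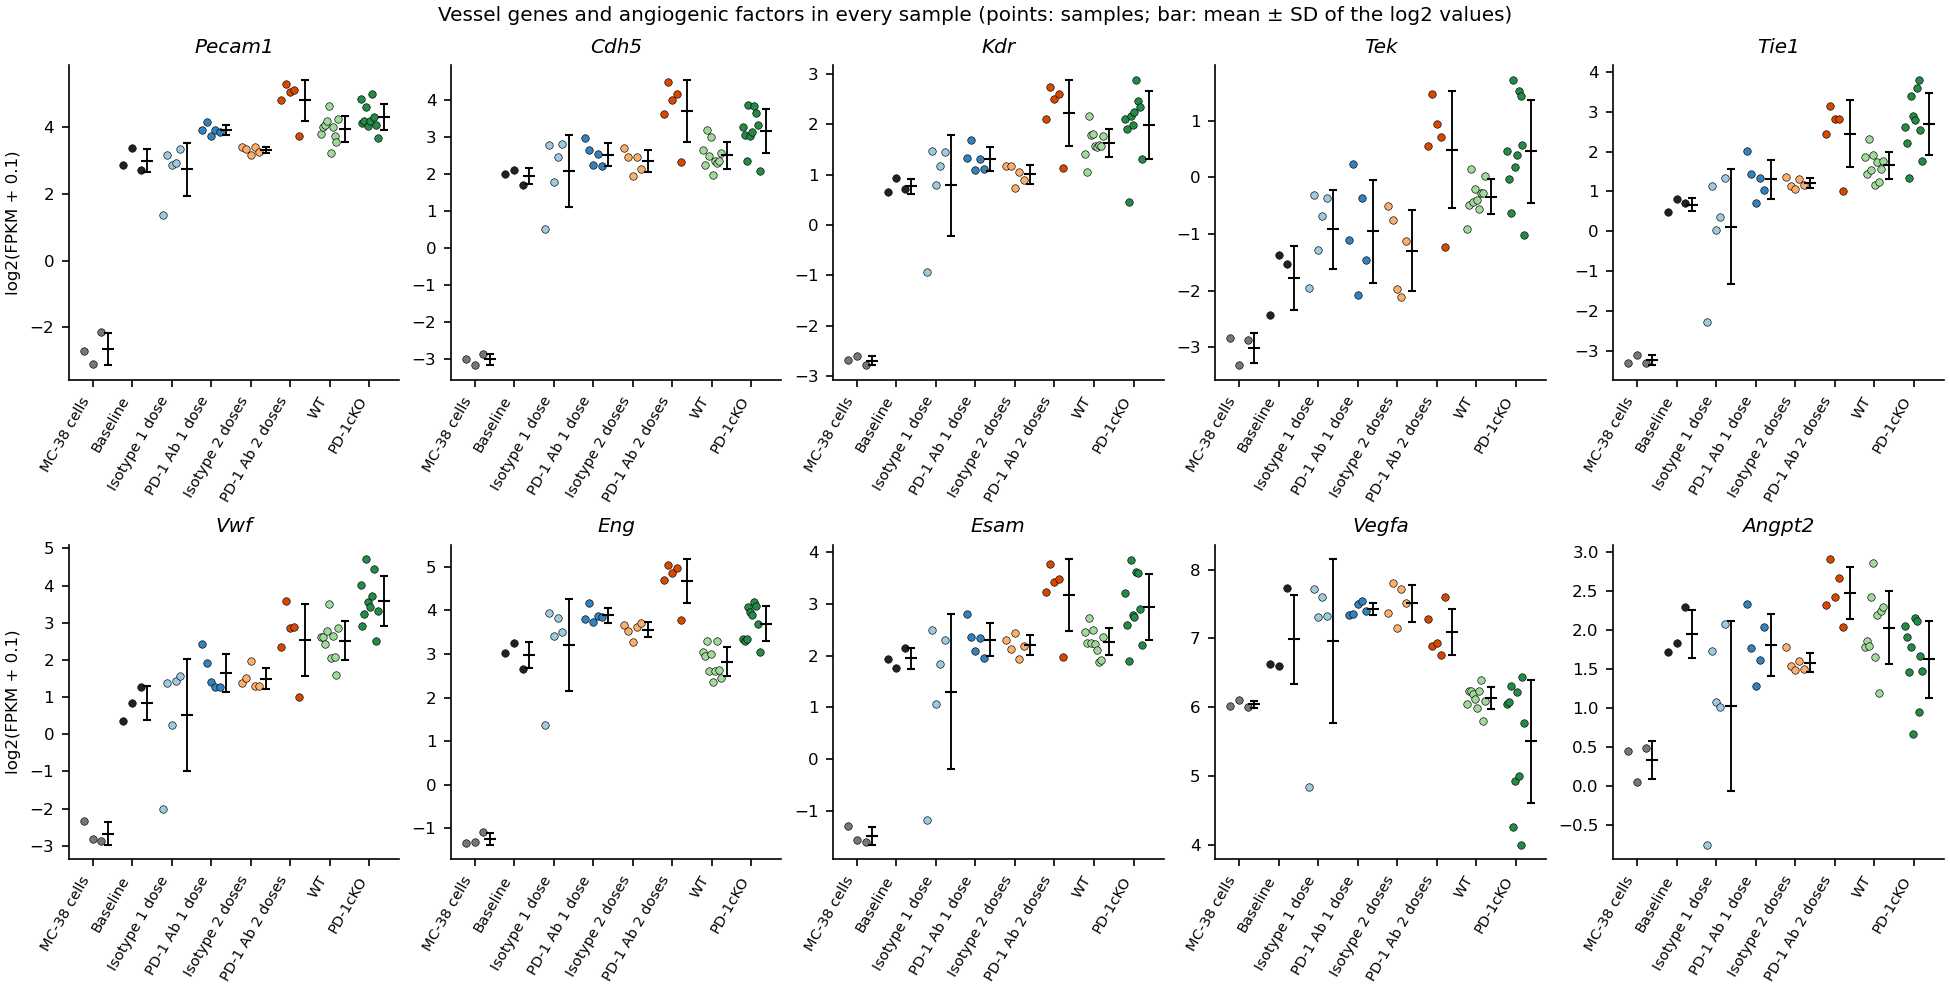
Level of each gene in every sample, as log2(FPKM + 0.1), for the 8 groups (points are samples, bars the mean ± SD of the log2 values). The 8 vessel genes sit near the floor in the 3 cultures and rise in tumors, whereas Vegfa is high in culture and in tumors; within the antibody study, PD-1 Ab tumors of 2 doses have the highest means for Pecam1 and Eng, with 1 tumor of that group apart from the other 4.

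Against the cultures, the isotype control tumors of 2 doses were used as the tumor reference. All 9 members that could be tested were called higher (limma, adjusted p under 0.01), beside 20.2% of 15199 genes higher and 37% called in either direction. The 7 vessel genes among them passed the filter on low values (a mean of 0.5 FPKM in at least 1 group) only through the tumors, so they had to differ, and their count and median are given as a description. Tumors lay above every culture for 26.3% of genes and for all 9. Pecam1 was higher by 5.96 (SE 0.21) on the log2(FPKM + 0.1) scale, Cdh5 by 5.34, Eng by 4.80, Tie1 by 4.45, Vwf by 4.17, Kdr by 3.70 and Esam by 3.68. The 2 factors differed less: Vegfa by 1.47 (SE 0.14, adjusted p = 3.0e-05), a 2.77-fold difference, and Angpt2 by 1.25 (SE 0.16, adjusted p = 0.000175), 2.38-fold. The median over the 7 vessel genes tested was 4.45, beside -0.11 over all genes, and Tek was too low in both groups to be tested. A fold change on this scale understates the change of low genes.

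Other genes of endothelium followed: of 22 listed, 21 were tested and 19 were higher in tumors, 14 of them tested only through their tumor level. Ecscr, an endothelial membrane protein, went from 0.145 to 29.0 FPKM, Cd93 from 0.0130 to 5.80 FPKM and Emcn, a mucin of capillaries and veins, from 0.0116 to 3.61 FPKM, and Gpihbp1, the capillary anchor of lipoprotein lipase, was listed at 0 in every culture and averaged 5.05 FPKM in the tumors. Cd34 was the exception, lower in tumors at 113 against 247 FPKM in culture. Among the tip cell and Notch genes 12 of 15 were higher, 7 of them again tested only through the tumors, Esm1 by 4.70, Dll4 by 3.97 and Pdgfb by 3.85 among them, Kcne3 was listed at 0 in culture and averaged 2.02 FPKM in tumors, and Jag2 was lower. Of the hypoxia targets 9 of 12 were higher, with Adm by 3.55, Ndrg1 by 3.45, Car9 by 3.10 and the glucose transporter Slc2a1 by 1.89. Of the other listed VEGF, angiopoietin and angiopoietin-like ligands, receptors and coreceptors 4 of 10 were higher (Angptl4 3.74, Pgf 3.64, Flt4 2.90 and Vegfc 1.45). The coreceptor Nrp2 was lower, at 30.9 against 74.7 FPKM. Adhesion molecules (F11r 5.87, Icam1 5.14 and Ackr1 2.37 higher, Cd99l2 -0.44) and angiostatic genes (Cxcl9 8.84, Cxcl11 3.15, Cxcl10 2.62, Col18a1 2.32 and Sema3f 0.91 higher, Thbs1 -0.89) made up the rest of the calls. Cd34, Nrp2, Jag2, Cd99l2, Thbs1 and Sema3f were named after their values were seen. Of 6 macrophage markers, Adgre1, C1qa and C1qb were at 0 in every culture, while Csf1r and Cd68 passed the filter on low values in the cultures too. Of 7 T cell markers, Cd3d, Cd3e, Cd3g and Cd8b1 were at 0 in every culture, and all 7 were tested only through the tumors.

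In the antibody study, the mean of every vessel gene and of Angpt2 was highest in PD-1 Ab tumors of 2 doses, at 29.7 ± 10.0 FPKM for Pecam1 and 26.5 ± 7.65 FPKM for Eng (SD, n = 5). Between groups next to each other in that order, ranges overlapped almost throughout. For Pecam1 and Eng the step without overlap was from isotype controls of 2 doses to PD-1 Ab tumors of 1 dose. For Tie1 it was from baseline tumors to isotype controls of 2 doses. Groups at these steps differ in both time and treatment. The share of all genes without overlap there was not taken, so the steps are a description. Vegfa averaged 136 ± 66.3 FPKM (n = 3) in baseline tumors and was highest in isotype controls of 2 doses, at 185 ± 33.5 FPKM (n = 5), with overlap at every step (SD).

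In the PD-1cKO study, the means of the 8 vessel genes were higher in PD-1cKO and those of both factors in WT tumors, with overlapping ranges for all 10. Tie1 averaged 7.24 ± 3.76 FPKM and Vwf 13.2 ± 6.50 FPKM in PD-1cKO tumors (SD, n = 10), and Vegfa averaged 70.4 ± 7.77 FPKM (n = 10) in WT tumors. Levels were not ranked between the studies, which differ in time, tamoxifen and the share of short RNAs, and these cannot be told apart. The order of PD-1 Ab and PD-1cKO means also turned with the scaling: Tek averaged 1.54 FPKM in PD-1 Ab tumors of 2 doses and 1.53 FPKM in PD-1cKO tumors as deposited, but 1.29 and 1.96 with median-of-ratios scaling.

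After 1 dose of PD-1 Ab, Pecam1 was the only member whose tumors did not overlap the isotype controls. It read 2.47, 8.81, 7.24, 7.54 and 9.98 FPKM in the controls and 15.0, 17.9, 13.3, 15.1 and 14.5 FPKM in treated tumors, so all 5 treated tumors lay above every control, as was the case for 3.59% of 14556 genes. The log2 difference was 1.19 (SE 0.33, adjusted p = 0.389). No gene was called in this comparison (0%; 895 genes had an unadjusted p under 0.05), and no member was. The other differences were 1.19 for Tie1, 1.14 for Vwf, 1.00 for Esam, 0.78 for Angpt2, 0.67 for Eng, 0.52 for Kdr, 0.47 for Vegfa, 0.45 for Cdh5 and -0.04 for Tek, beside a median of 0.26 over all genes.

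That median rested on the isotype control with 54.6% mitochondrial FPKM. Vegfa was 28.6 FPKM in it and 159 to 210 FPKM in the other 4 controls. Without it the median over all genes was -0.04, 14 genes were called (13 higher and 1 lower, no member among them), Pecam1 differed by 0.85 (adjusted p = 0.0111) and Vegfa by -0.06. With median-of-ratios scaling between samples the median was 0.01 and Pecam1 differed by 0.94 (adjusted p = 0.0320). Macrophage markers summed to 158 to 825 FPKM in the controls and 813 to 1179 FPKM in treated tumors, and T cell markers to 5.49 to 27.3 and 18.6 to 67.1 FPKM, with none of the 13 genes called, and their part in the Pecam1 difference was not tested.

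After 2 doses of PD-1 Ab the vessel genes were higher in 4 of 5 treated tumors. Pecam1 read 10.4, 10.0, 8.95, 10.4 and 9.37 FPKM in isotype controls and 28.0, 39.5, 33.4, 34.3 and 13.3 FPKM in treated tumors. All 5 treated tumors lay above every control, the fifth by little. Pecam1 rose by 1.50 (SE 0.24, adjusted p = 0.00222), 2.82-fold.

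Eng, the endoglin gene, read 12.5, 11.4, 9.64, 12.2 and 12.9 FPKM in controls and 25.9, 32.8, 28.8, 31.6 and 13.7 FPKM in treated tumors. The groups did not overlap, and it rose by 1.11 (SE 0.21, adjusted p = 0.00455), 2.16-fold. Angpt2 read 3.33, 2.80, 2.72, 2.94 and 2.72 FPKM in controls and 4.89, 7.43, 5.28, 6.23 and 4.00 FPKM in treated tumors. It rose by 0.89 (SE 0.17, adjusted p = 0.00455), 1.85-fold, again without overlap. These 3 were the members called, of 10, while 8.25% of 15062 genes were called and 6.69% were called higher. Groups did not overlap, treated higher, for 9.23% of genes. In bulk RNA, more vessel cells and more RNA per vessel cell cannot be told apart.

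The junction gene Cdh5 read 6.40, 5.40, 3.77, 5.38 and 4.29 FPKM in controls and 12.3, 22.1, 15.7, 17.7 and 4.88 FPKM in treated tumors. Here 4 treated tumors lay above every control and the fifth lay within them, and the difference of 1.37 (SE 0.34, adjusted p = 0.0152) was not called. Tie1 read 2.48, 2.10, 1.98, 2.37 and 2.12 FPKM in controls and 5.34, 8.74, 6.90, 7.00 and 1.91 FPKM in treated tumors, the fifth below every control. Its difference was 1.24 (SE 0.33, adjusted p = 0.0213). Kdr differed by 1.22 (SE 0.28, adjusted p = 0.0107), Tek by 1.78 (SE 0.50, adjusted p = 0.0260), Esam by 0.97 (SE 0.28, adjusted p = 0.0285) and Vwf by 1.03 (SE 0.39, adjusted p = 0.0690), with 4 of 5 treated tumors above every control in each. Tek passed the filter on low values only through the treated group. At an adjusted p under 0.05, which 24.5% of genes passed, 8 members were higher, 7 vessel genes and Angpt2. The median over the 8 vessel genes was 1.23, beside -0.04 over all genes.

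Vegfa did not follow. It read 165, 224, 142, 210 and 183 FPKM in controls and 156, 119, 123, 109 and 193 FPKM in treated tumors. Of the treated tumors 3 lay below every control, and the difference of -0.42 (95% interval -0.79 to -0.04, adjusted p = 0.0955) was not called. The 3 treated tumors with the highest Cdh5 had the 3 lowest levels of Vegfa, as the plot of Vegfa against Cdh5 shows.

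**Figure D2:**
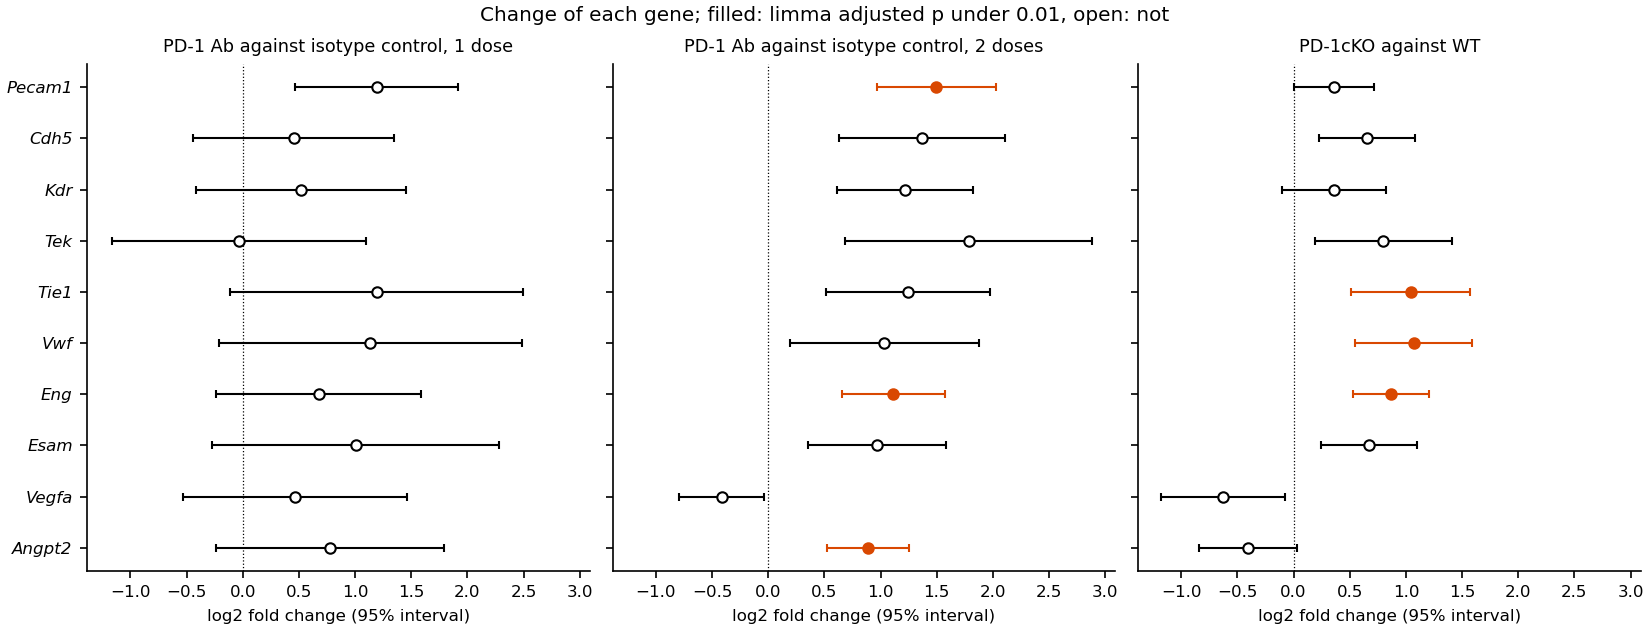
Log2 fold change of each gene with its 95% interval, for PD-1 Ab against isotype controls after 1 dose, after 2 doses, and for PD-1cKO against WT (filled points: limma adjusted p under 0.01). Pecam1, Eng and Angpt2 are filled after 2 doses and Tie1, Vwf and Eng in PD-1cKO, while Vegfa lies left of 0 in both of these panels without being filled.

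The treated tumor labelled replicate 5 differed from the other 4 in more than vessel genes. T cell markers summed to 44.1 FPKM in it, against 111 to 177 in the other 4 and 10.8 to 23.0 in the controls. Macrophage markers summed to 1131 FPKM in it and to 1937 to 2346 in the others, and hypoxia targets to 3063 FPKM in it and to 2054 to 2571 in the others. Without this tumor 2571 genes were called (1932 higher and 639 lower) in place of 1243, and 9 of 10 members were higher. The differences then were 1.76 for Pecam1, 1.72 for Cdh5, 1.49 for Kdr, 2.22 for Tek, 1.60 for Tie1, 1.42 for Vwf, 1.34 for Eng, 1.27 for Esam and 1.00 for Angpt2, and -0.54 for Vegfa (adjusted p = 0.0202). The calls for Eng and Angpt2 were not kept in most of the other fits that left out 1 tumor, where the differences were 1.02 to 1.15 for Eng and 0.78 to 0.93 for Angpt2 in the fits without the call, with adjusted p of 0.0109 to 0.0168 and 0.0112 to 0.0153.

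Cell types other than endothelium moved with the vessel genes. All 7 T cell markers and 5 of 6 macrophage markers were called higher after 2 doses. Of markers of mural cells, the pericytes and smooth muscle around vessels, Des (1.66) and Acta2 (1.14) were called of 10, and their sums were 158 to 205 FPKM in controls and 169 to 294 FPKM in treated tumors. Pf4, a platelet and megakaryocyte gene, rose by 1.06, while 5 of the 7 platelet genes were too low to test, and platelet sums were 15.5 to 22.8 and 27.9 to 61.7 FPKM. Adipocyte markers summed to 7.42 to 84.0 FPKM in controls and 23.8 to 728 FPKM in treated tumors, with Plin1 called (2.99), and the skeletal muscle genes Acta1 (3.98) and Myl1 (3.19) were called, tested only through the treated group. Skeletal muscle genes summed to 2.64 to 10.7 FPKM in treated replicates 1 to 4 and to 76.8 FPKM in replicate 5. No fibroblast, lymphatic or epithelial marker was called (6, 4 and 6 tested), and epithelial sums were 2.29 to 27.5 and 2.84 to 52.4 FPKM. The part of these cells in the vessel gene differences was not tested. Marker genes named here were picked after their values were seen.

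In PD-1cKO tumors Eng, Tie1 and Vwf were the members called, all higher than in WT. Eng read 5.00, 6.88 and 9.80 FPKM (lowest, median and highest) in WT and 8.17, 13.7 and 18.1 FPKM in PD-1cKO tumors. Of 10 PD-1cKO tumors 8 lay above every WT tumor, and Eng rose by 0.87 (SE 0.16, adjusted p = 0.00120). Tie1 read 2.15, 3.04 and 4.88 FPKM in WT and 2.43, 6.43 and 13.9 FPKM in PD-1cKO tumors, 7 of which lay above every WT tumor, and it rose by 1.04 (SE 0.26, adjusted p = 0.00440). Vwf read 2.93, 6.00 and 11.2 FPKM in WT and 5.63, 11.2 and 26.3 FPKM in PD-1cKO tumors, with 5 above every WT tumor, and it rose by 1.07 (SE 0.25, adjusted p = 0.00361). These were 3 of 10 members, beside 21.3% of 15075 genes called and 8.78% called higher.

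Cdh5 (0.65, SE 0.21, adjusted p = 0.0163), Esam (0.67, SE 0.21, adjusted p = 0.0143) and Tek (0.80, SE 0.29, adjusted p = 0.0331) passed an adjusted p of 0.05, which 43.6% of genes did, but were not called. Cdh5 read 3.84, 5.22 and 9.07 FPKM in WT and 4.15, 9.07 and 14.5 FPKM in PD-1cKO tumors. Pecam1 read 9.31, 15.9 and 24.5 FPKM in WT and 12.6, 18.1 and 31.6 FPKM in PD-1cKO tumors. Only 2 PD-1cKO tumors lay above every WT tumor, and the difference was 0.36 (SE 0.17, adjusted p = 0.0912). Kdr differed by 0.36 (SE 0.22, adjusted p = 0.190). The median over the vessel genes was 0.73, beside -0.20 over all genes. With median-of-ratios scaling the median over all genes was -0.04, Cdh5 (0.81, adjusted p = 0.00603) and Esam (0.83, adjusted p = 0.00680) were called as well, and the split of all calls went from 1323 higher and 1894 lower to 1849 higher and 1643 lower.

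The 2 factors were not called in PD-1cKO tumors. Angpt2 read 2.20, 3.99 and 7.14 FPKM in WT and 1.49, 3.21 and 4.36 FPKM in PD-1cKO tumors, a difference of -0.40 (SE 0.21, adjusted p = 0.118). Vegfa read 55.9, 71.1 and 83.8 FPKM in WT tumors. In PD-1cKO tumors it read 66.3, 67.1, 78.9, 19.0, 30.3, 74.6, 31.8, 15.9, 86.5 and 54.7 FPKM for replicates 1 to 10, so that 5 lay below every WT tumor and 1 above. The difference was -0.63 (SE 0.27, adjusted p = 0.0597), and -0.47 (adjusted p = 0.0943) with median-of-ratios scaling.

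**Figure D3:**
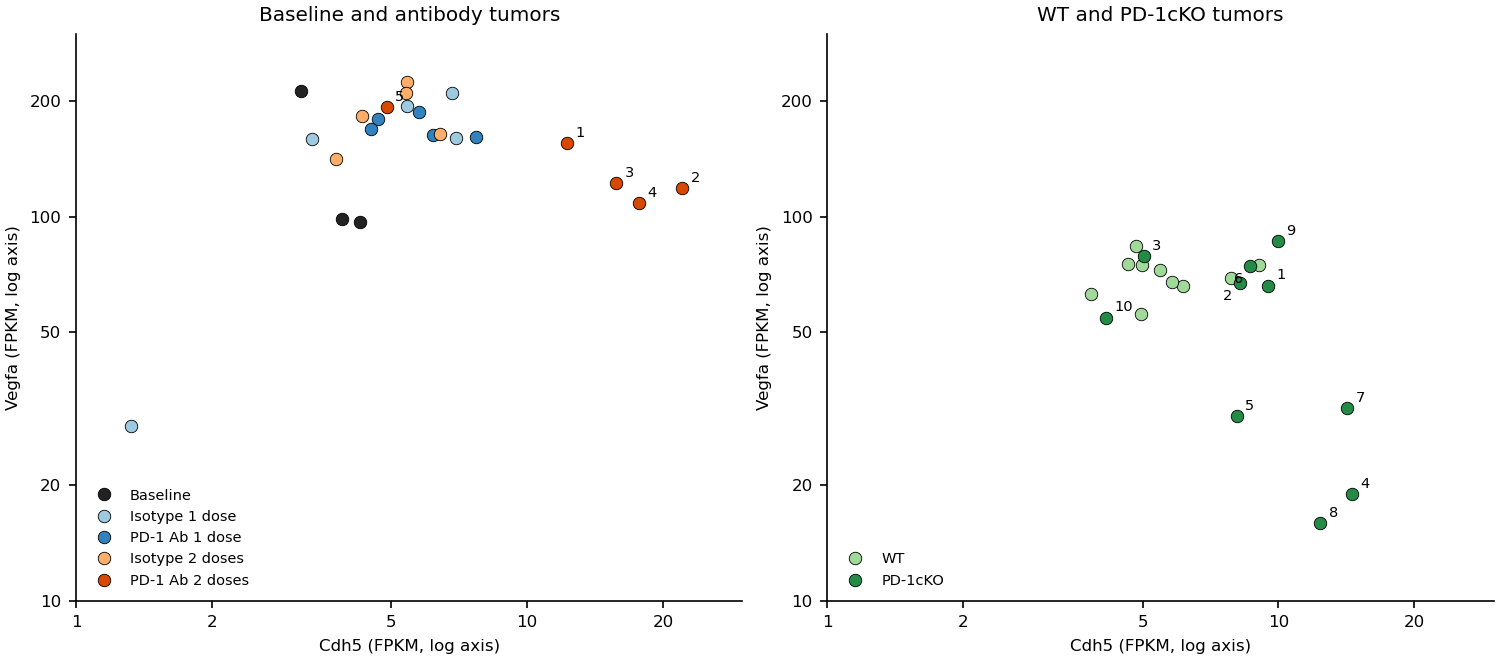
Vegfa against Cdh5 in FPKM on log axes, left for baseline and antibody tumors and right for WT and PD-1cKO tumors (points are tumors, numbers the replicates of the 2-dose PD-1 Ab and PD-1cKO groups). Treated replicates 1 to 4 lie at high Cdh5, replicate 5 among the controls, and PD-1cKO replicates 4, 5, 7 and 8 lie at 15.9 to 31.8 FPKM of Vegfa.

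The PD-1cKO tumors with the lowest Vegfa, replicates 4, 5, 7 and 8, also stood apart in other ways. Tie1 read 10.5, 7.28, 11.9 and 13.9 FPKM in them and 2.43 to 6.79 FPKM in the other 6, and Eng 16.7, 15.5, 18.1 and 17.1 FPKM against 8.17 to 14.7 FPKM. Hypoxia targets summed to 600, 1147, 1424 and 404 FPKM in them and to 1722 to 2213 FPKM in the others, while fibroblast markers summed to 12424, 6431, 8976 and 11066 FPKM against 2228 to 3784 FPKM. They were also the PD-1cKO samples with FPKM sums above 1000000. No test was made between these tumors, which were set apart by their values.

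Over the groups, T cell markers summed to 10.4 to 40.9 FPKM in WT and 27.2 to 102 FPKM in PD-1cKO tumors (7 of 7 called higher), macrophage markers to 713 to 1243 and 1009 to 3452 FPKM (4 of 6), fibroblast markers to 1067 to 2272 and 2228 to 12424 FPKM (4 of 6), and platelet genes to 13.4 to 31.2 and 21.4 to 88.4 FPKM (2 of 2 tested, Pf4 1.05 and Itga2b 0.98). Acta2 and Notch3 were called of 10 mural cell markers, which summed to 118 to 144 FPKM in WT and 120 to 229 FPKM in PD-1cKO tumors. No lymphatic, adipocyte, skeletal muscle or epithelial marker was called. Their part in the vessel gene differences was not tested. The sample identifiers in the table fell into 3 runs: 7 PD-1cKO tumors made up the first, 9 WT tumors and 1 PD-1cKO tumor the second, and 1 WT and 2 PD-1cKO tumors the last. What a run stands for is not stated. With the run as a covariate limma called 0 genes (6533 had an unadjusted p under 0.05), and Eng differed by 1.10 (adjusted p = 0.0257), Tie1 by 1.41 (adjusted p = 0.0335), Vwf by 1.16 (adjusted p = 0.0634) and Vegfa by -1.22 (adjusted p = 0.0539). The first run held no WT tumor, so run and genotype cannot be told apart there. The estimates with this covariate therefore rest on 1 PD-1cKO against 9 WT tumors and on 2 against 1. That 1 PD-1cKO tumor of the second run was replicate 8, with the lowest Vegfa (15.9 FPKM) and highest Tie1 (13.9 FPKM) of both genotypes.

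Whether the antibody and the PD-1cKO differences themselves differed was tested in 1 fit of all 4 groups. Of 16404 genes 0.0975% were called, 16 in number, and no member was among them. The antibody effect at 2 doses minus the PD-1cKO effect was 1.29 for Angpt2 (SE 0.33, adjusted p = 0.0550), where the effects were 0.89 and -0.40, and 1.14 for Pecam1 (SE 0.31, adjusted p = 0.0804). It was 0.86 for Kdr (adjusted p = 0.277), 0.25 for Eng, 0.20 for Tie1, -0.03 for Vwf and 0.21 for Vegfa (95% interval -0.63 to 1.05), beside a median of 0.23 over all genes (0.03 with median-of-ratios scaling). Without treated replicate 5, 61 genes were called and Pecam1 was among them (1.40, adjusted p = 0.00591). Between the 2-dose and 1-dose antibody effects, limma called no gene (0% of 15289; 1182 had an unadjusted p under 0.05). The largest values among members were 1.82 for Tek (adjusted p = 0.623), 0.92 for Cdh5 and -0.88 for Vegfa (adjusted p = 0.626), beside a median of -0.27 over all genes (0.02 without the isotype control of high mitochondrial share). The 2-dose tumors entered both tests.

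Ratios of 2 members within a tumor do not depend on the scaling of that tumor, apart from the 0.1 FPKM added. Kdr over Pecam1, the VEGF receptor against the junction gene, fell in every PD-1 Ab tumor below every isotype control at both doses, by 0.67 (SE 0.12) after 1 dose and by 0.28 (SE 0.06) after 2 doses on the log2 scale. Both exact permutation tests gave p = 0.00794, the smallest possible with 5 against 5 tumors, and 0.0238 after Benjamini-Hochberg adjustment over the 9 ratio tests. Pecam1 alone also did not overlap between these groups at either dose. The share of other genes whose ratio to Pecam1 separates the groups was not taken. Whether the fall is particular to Kdr was therefore not tested. In PD-1cKO tumors the same ratio differed by -0.0016 (SE 0.22, permutation p = 0.995). Markers of macrophages and T cells, which also express Pecam1, were higher in the 2-dose tumors, and their part in this ratio was not tested.

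Vegfa over Kdr, the ligand against its receptor, differed by -1.63 (SE 0.45, exact permutation p = 0.0238, adjusted p = 0.0536) after 2 doses, with 4 of 5 treated tumors below every control. It differed by -0.99 (SE 0.43, permutation p = 0.0362, adjusted p = 0.0652) in PD-1cKO tumors, 6 of 10 of which lay below every WT tumor and 1 above, and by -0.05 (exact permutation p = 0.770) after 1 dose. None of the 3 passed an adjusted p of 0.05. After 2 doses the ratio passed without treated replicate 5 (-2.03, exact permutation adjusted p = 0.0238). In PD-1cKO tumors it passed without replicate 3 (-1.25, permutation adjusted p = 0.00324) or replicate 10 (-1.09, permutation adjusted p = 0.0479). Treated replicate 5 held the highest ratio of its group and PD-1cKO replicates 3 and 10 the 2 highest of theirs. The other 9 and 18 fits that left out 1 tumor did not pass, with permutation adjusted p up to 0.0652 and 0.129. Angpt2 over Tek, ligand against receptor, fell by 1.20 (SE 0.35, permutation p = 0.00253, adjusted p = 0.0228) in PD-1cKO tumors, 5 of 10 of which lay below every WT tumor. Angpt2 over Tek differed by 0.81 after 1 dose (exact permutation adjusted p = 0.163) and by -0.90 after 2 doses (exact permutation adjusted p = 0.143). Without treated replicate 5 it differed by -1.22 (exact permutation adjusted p = 0.0429). Tek read only 0.132 to 0.601 FPKM in the 2-dose controls, close to the 0.1 FPKM added. With 1 FPKM added, Angpt2 over Tek differed by -0.13 after 2 doses (exact permutation adjusted p = 0.571). In PD-1cKO tumors it then differed by -0.80 (permutation adjusted p = 0.0181). Tests were two-sided.

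**Figure D4:**
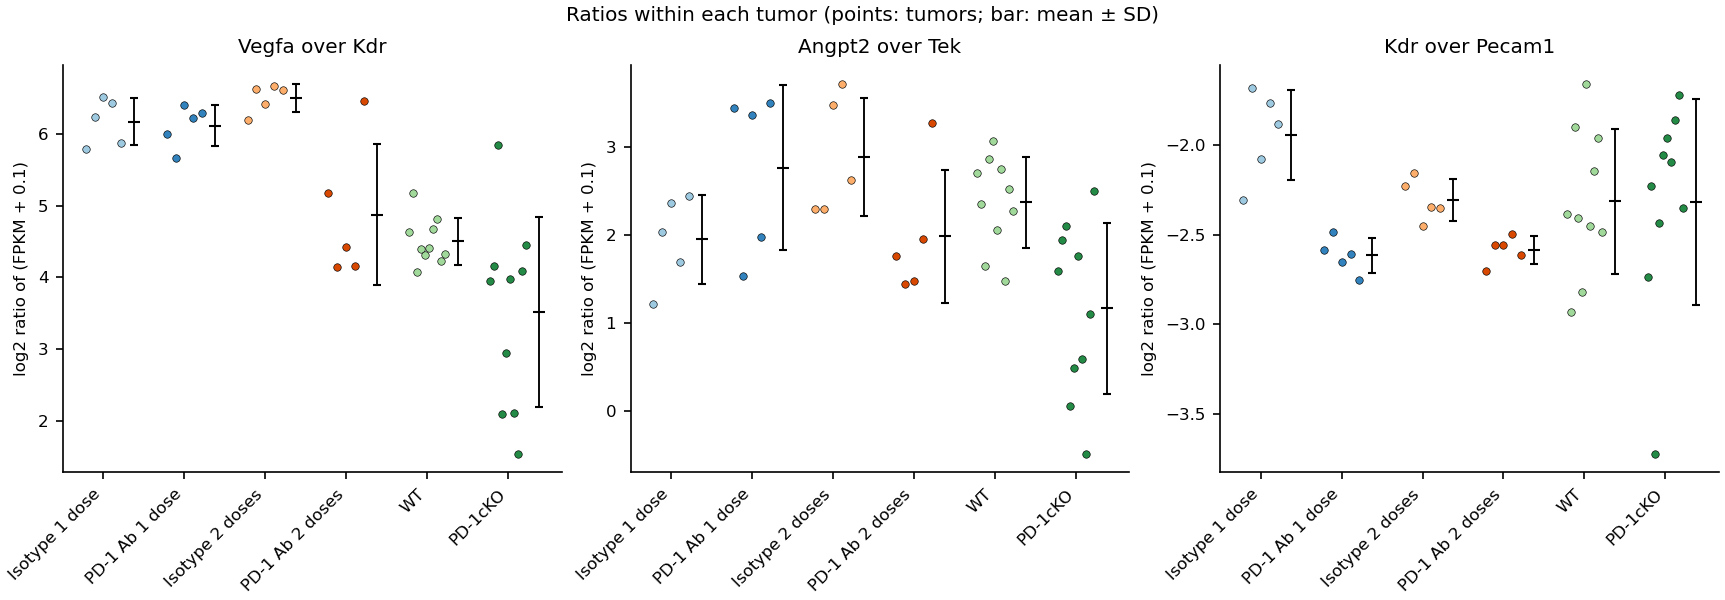
Log2 ratio of (FPKM + 0.1) within each tumor for Vegfa over Kdr, Angpt2 over Tek and Kdr over Pecam1 in the 6 treated and control groups (points are tumors, bars the mean ± SD). Kdr over Pecam1 is lower in all PD-1 Ab tumors than in all isotype controls of the same dose, and Vegfa over Kdr spreads widely in PD-1cKO tumors.

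Across the 43 tumors, after the mean of each group was taken off and with median-of-ratios scaling, the vessel genes rose and fell together. Pearson's r over the 28 pairs of vessel genes was 0.56 to 0.94 with a median of 0.74, and was 0.89 for Cdh5 and Tie1. Vegfa had r of -0.51 to -0.27 with the single vessel genes. With the mean of the 8 vessel genes its r was -0.45 after scaling and 0.075 on values as deposited, so the sign rested on the scaling. Angpt2, in contrast, had r of 0.11 to 0.55 with the vessel genes. Of 13219 genes the most like the vessel mean were Mcam (r = 0.94), C130074G19Rik (0.92), Myo1d (0.92), Mmrn2 (0.91) and Adgrf5 (0.91), and the most like Vegfa were Tbx3 (0.90), Strc (0.86), Rhbdl2 (0.85), Ahi1 (0.85) and Pax3 (0.85). These are descriptions over tumors that share groups and sequencing. Among them were the 4 PD-1cKO tumors of low Vegfa and the 1 treated tumor of low vessel genes. The isotype control of high mitochondrial share was also among them, with a scaling factor of 0.435. As deposited, Tie1, Vwf and Esam were lower in it than in any other tumor. The part of single tumors in these r values was not tested.

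Of the other endothelial genes, 2 of 22 were called after 2 doses, a share near the 8.25% of all genes: Cd93 (1.35, SE 0.29) and the ETS factor Fli1 (1.28, SE 0.25). Their median was 0.91, beside -0.04 over all genes. Of the 22, 9 were higher at an adjusted p under 0.05, beside 14.6% of all genes. Without treated replicate 5, 15 of them were called, beside 2571 of 15157 genes. T cell markers (7 of 7) and macrophage markers (5 of 6) were also called higher after 2 doses. The part of these cells in the calls of Cd93 and Fli1 was not tested. In PD-1cKO tumors 8 of 22 were called, all higher, beside 8.78% of all genes called higher, led by the endothelial transcription factor Sox17 (1.52, from 0.410 FPKM in WT to 1.45 FPKM, tested only through its PD-1cKO level), the tight junction gene Cldn5 (1.34, from 2.72 to 8.51 FPKM), the transcription factor Sox18 (1.02) and Plvap, a gene of endothelial fenestrae (0.95). The median was 0.59, beside -0.20. After 1 dose no gene of this or any other list was called.

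The listed VEGF, angiopoietin and angiopoietin-like ligands, receptors and coreceptors mostly did not pass the test. Flt4, the receptor of lymphatic and sprouting endothelium, rose by 1.76 (SE 0.35, limma adjusted p = 0.00616) after 2 doses, from 0.672 to 2.77 FPKM. It was the sole call of 11, a share near the 8.25% of all genes called. The most abundant genes of the list then were Vegfb (-0.49, adjusted p = 0.0284) and Nrp2 (0.18). In PD-1cKO tumors Vegfc fell by 1.18 (SE 0.32), from 9.36 to 5.09 FPKM, and Angptl4 rose by 0.83 (SE 0.23). These were 2 of 11, a share near the 21.3% of all genes called there. Among Notch and tip cell genes, Notch4 (1.29) and Pdgfb (1.21) rose after 2 doses, 2 of 15, beside 8.25% of all genes called. In PD-1cKO tumors Pdgfb (0.76), Notch4 (0.71) and Jag2 (0.66, named after its value was seen) rose. Esm1, a tip cell gene, fell by 1.14 and Hey1 fell by 0.89, so calls in this list went both ways. They were 5 of 14 tested, beside 21.3% of all genes called.

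Few hypoxia targets were called, 2 of 12 in each model, all lower, beside 1.56% of all genes called lower after 2 doses and 12.6% in PD-1cKO tumors, the latter a share near that of the list. Ndrg1 fell by 0.83 (SE 0.14) and Slc2a1 by 0.78 (SE 0.16) of 12 after 2 doses, and Bnip3 by 0.98 (SE 0.25) and Pdk1 by 0.65 (SE 0.18) of 12 in PD-1cKO tumors. The medians were -0.43 and -0.65, beside -0.04 and -0.20 over all genes, and with median-of-ratios scaling 1 target was called in PD-1cKO tumors. Icam1, an adhesion molecule of inflamed endothelium and of leukocytes, rose in both, by 1.74 (SE 0.23) and 1.08 (SE 0.19). After 2 doses F11r rose by 0.81 and Jam3 fell by 0.62, of 8 adhesion genes tested, while in PD-1cKO tumors Icam1 was the sole call of 8 and the abundant Vcam1 differed by -0.09. The angiostatic chemokines Cxcl9 (1.56), Cxcl11 (1.43) and Cxcl10 (1.09), interferon-induced attractants of T cells, and the matrix protein Thbs1 (1.46) rose after 2 doses, 4 of 10. In PD-1cKO tumors Thbs2 (0.97) and Sema3f (0.49) rose and Sema3a fell by 1.37, of 10 tested. Of all genes, 8.25% were called in either direction after 2 doses and 21.3% in PD-1cKO tumors. In PD-1cKO tumors the counts of adhesion genes (1 of 8) and angiostatic genes (3 of 10) lay on either side of that share. With lists this short, the counts are a description. With the identifier run as a covariate, no gene of any of these lists was called in PD-1cKO tumors.

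**Figure D5:**
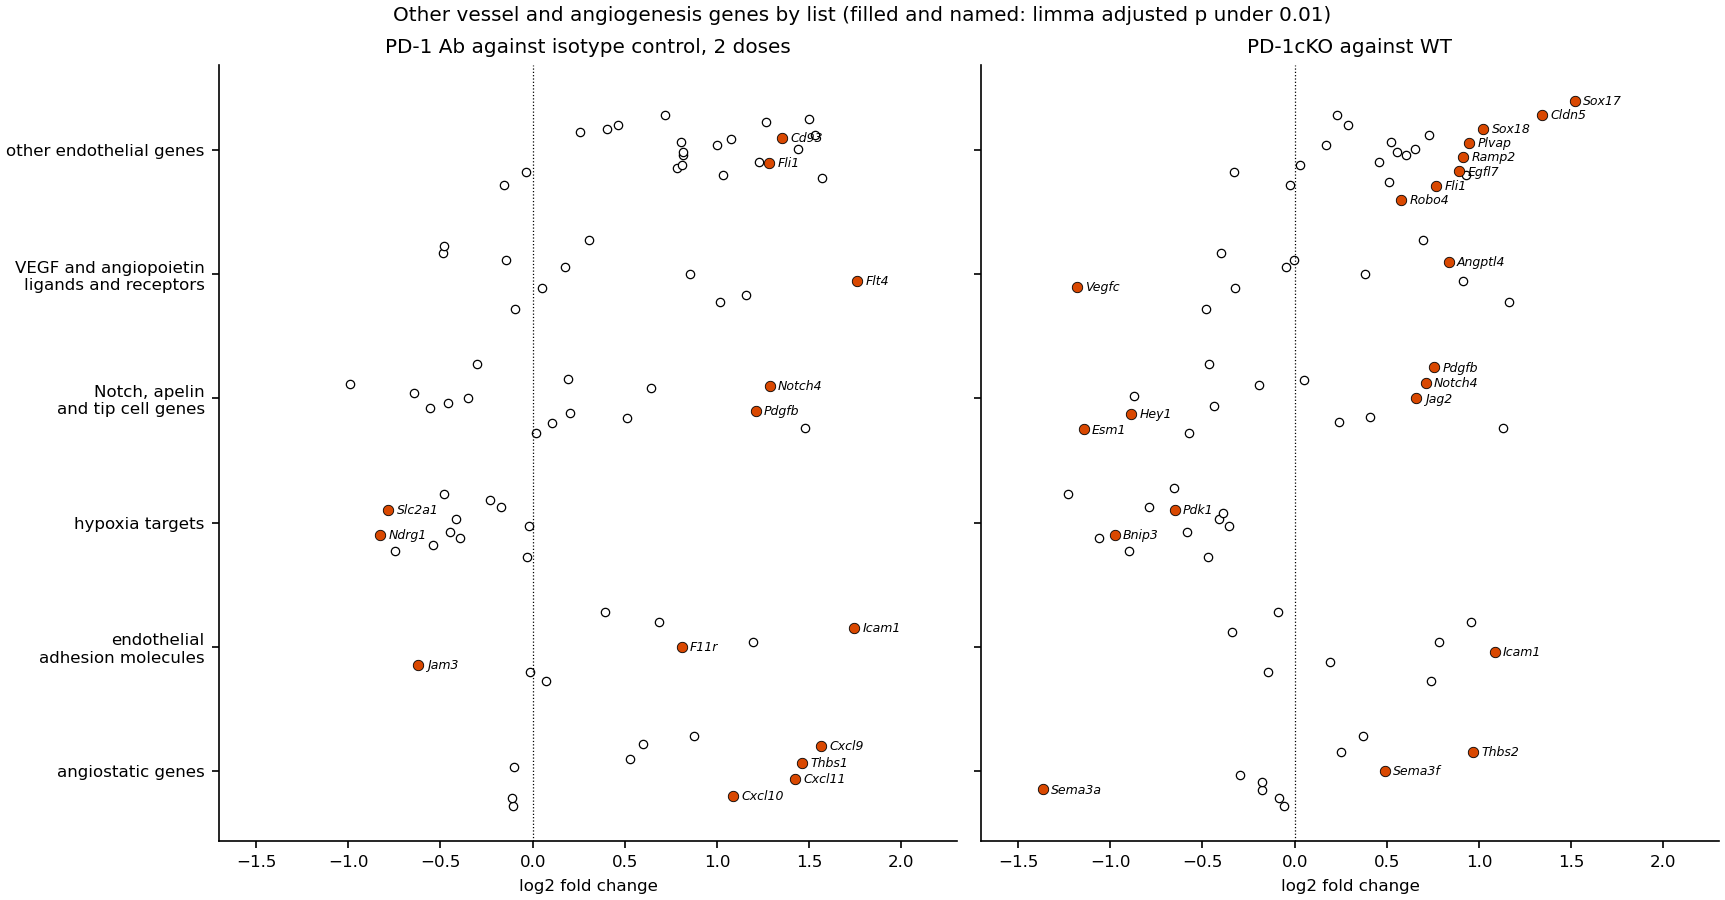
Log2 fold change of every tested gene of the 6 lists of other vessel and angiogenesis genes, left for 2 doses of PD-1 Ab against isotype controls and right for PD-1cKO against WT (filled and named: limma adjusted p under 0.01). Called hypoxia targets lie left of 0 in both panels, called endothelial genes right of 0, and Notch and tip cell genes lie on both sides in PD-1cKO.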

How the data were processed

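Total RNA of bulk tumors and cultured cells was sequenced as 50-base read pairs (stranded TruSeq libraries, Illumina HiSeq). The authors aligned reads with OSA in Array Studio to Mouse.B38 with Ensembl R86 genes and deposited FPKM. Whether counting used strand is not given in the sources used here. Count tests need counts, which were not analysed here. Values were tested as log2(FPKM + 0.1) with limma 3.58.1 (R 4.3.3, trended eBayes) for genes whose mean reached 0.5 FPKM in at least 1 of the groups compared, adjusted by Benjamini-Hochberg over all genes tested, and called at an adjusted p under 0.01. Ratios were tested by permutation (numpy 2.4.6), exact or with 100000 resamples. Scripts were tested on simulated data. FPKM give no read depth, so no counting interval was possible. Alternatives were another pseudocount, filter, scaling, threshold, a joint fit, blocks and leaving out tumors.

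The members and lists were chosen with earlier results of these data known. All 10 members were named, and of each list up to 4 called genes by size of change, or the 2 most abundant where fewer than 2 were called, with exceptions stated. Ccl21a, on 2 gene identifiers, was left out. Gene identifiers matched GENCODE M21 for 99.3%. All sample columns of the table were mapped.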

Additional observations from a re-analysis of the deposited data

Results flagged for a closer look

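In each group of 4 to 10 samples and each member, the sample at either end was compared with the others by Dixon's gap test at the 95% level, 60 groups in all, where chance alone marks about 1 in 20. There were 4 outliers. Vegfa was 28.606 FPKM in isotype control replicate 1 of the 1-dose groups, the tumor of high mitochondrial share, where the next lowest was 159.27 FPKM. Eng was 18.002 FPKM in PD-1 Ab replicate 2 of 1 dose, where the next highest was 14.479 FPKM. Vwf was 3.8369 FPKM in isotype control replicate 3 of 2 doses (next 2.7627 FPKM) and 11.24 FPKM in WT replicate 5 (next 7.1063 FPKM). None of 20 tested differences between effects in members passed the threshold.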

How the results depend on the processing

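The depth behind each value is unknown from FPKM, and groups of 5 limit what can be called. After 1 dose, the count of genes was 0, and 1 at an adjusted p under 0.05 and 10 with all 7 tumor groups in 1 fit. After 2 doses, 1243 genes and 3 members were called. These became 3685 genes and 8 members at an adjusted p under 0.05, 799 genes with a 2-fold limit, 578 genes and 1 member with no filter, and 342 genes and 1 member with the replicate block. For PD-1cKO, 3217 genes and 3 members became 6572 and 6 at an adjusted p under 0.05, 1217 genes with a 2-fold limit, 1893 genes with no filter, 1883 genes with the block, 5 members with median-of-ratios or upper-quartile scaling, and 0 and 0 with identifier runs as a covariate. Against cultures, 5621 genes became 3231 with a 2-fold limit and 2733 with the block. For the antibody minus the PD-1cKO effect, 16 genes became 94 at an adjusted p under 0.05, 43 with 1 FPKM added, 33 with no filter, 9 with median-of-ratios and 1 with upper-quartile scaling. For the dose difference, 0 became 1 with no filter. Replicate numbers did not pair the samples: correlations of same-numbered deviations were -0.21 to 0.16, and the block lowered the counts as given, by itself no sign of a weaker effect.

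Leaving out 1 replicate each gave 0 to 14 genes and 0 members after 1 dose, 421 (without treated replicate 3) to 2571 (without treated replicate 5) genes and 1 to 9 members after 2 doses, 1965 (without PD-1cKO replicate 7) to 4866 (without PD-1cKO replicate 9) genes and 3 to 6 members (6 without PD-1cKO replicate 10) for PD-1cKO, 3563 to 7095 genes and 9 members against cultures, and 2 to 61 genes and 0 to 1 members for the difference of models. After 2 doses Pecam1 was called in all 10 such fits, while Eng was not called in 8 and Angpt2 not in 6. With no filter Eng and Angpt2 had adjusted p of 0.0141 and 0.0108, and Tie1 in PD-1cKO 0.0106 (0.0148 with the block). Signs turned, all below the threshold, for Tek after 1 dose (0.0089 with 1 FPKM added; -0.30 to 0.24 leaving out replicates), for the model difference in Tie1 (-0.019 and -0.068), Eng (-0.021, upper quartile) and Vegfa (-0.0033 and -0.056) under median-of-ratios and upper-quartile scaling, and in Vwf (-0.30 to 0.35 leaving out replicates). They turned for the dose difference in Vwf (0.22 with 1 FPKM added, 0.092 and 0.024 scaled) and Esam (0.19, 0.20 and 0.13), with ranges of -0.25 to 0.65 for Tie1, -0.36 to 0.53 for Vwf, -0.33 to 0.59 for Esam and -0.15 to 0.56 for Angpt2 leaving out replicates. Vegfa after 1 dose ranged from -0.064 to 0.65. The cause was not tested.

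Of the ratios, Vegfa over Kdr after 1 dose was 0.16 with 1 FPKM added, and leaving out replicates gave -0.15 to 0.060 after 1 dose, -2.03 to -1.45 after 2 doses and -1.25 to -0.77 in PD-1cKO. Angpt2 over Tek gave 0.63 to 1.121, -1.22 to -0.69 and -1.35 to -1.02, and Kdr over Pecam1 -0.76 to -0.61, -0.32 to -0.24 and -0.070 to 0.15. Of the 10 genes most like Vegfa, 3 were among the top 10 on values as deposited. Counts of list genes without a tumor, with scaling or with identifier runs were chosen after seeing the data.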
